A study of Mus musculus with 16 samples.

Results

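The platelet-derived growth factor (PDGF) genes are the 4 ligands Pdgfa, Pdgfb, Pdgfc and Pdgfd and the 2 receptors Pdgfra and Pdgfrb. They were taken as every probe set that the array annotation gives to exactly 1 of these symbols. All 6 genes were found, with 14 probe sets, among 18193 genes measured. For each gene the probe set with the highest mean level over the 16 arrays was used, and the others served as a check. RNA came from single newborn XX ovaries, separated from the mesonephros, 4 for each of 4 genotypes born from the same kind of cross on a mixed background that includes B6. Control ovaries were Runx1+/f, Foxl2+/+ and carried no Cre (Sf1-cre+/+). Runx1 KO ovaries were Runx1-/f, Foxl2+/+ and Sf1-cre+/Tg. Foxl2 KO ovaries were Runx1+/f, Foxl2-/- and Sf1-cre+/+. DKO ovaries were Runx1-/f, Foxl2-/- and Sf1-cre+/Tg. Every group therefore carried 1 floxed Runx1 allele. The Sf1 promoter drives Cre in somatic cells of the gonad, so the floxed Runx1 allele was removed there. The other Runx1 allele of the Runx1 KO and DKO was null in every cell. Foxl2 was absent from every cell of the Foxl2 KO and DKO. Cre was carried only with a Runx1 null allele, so an effect of Cre and one of Runx1 loss cannot be told apart.

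PDGF ligands are secreted as dimers and act through PDGFRA and PDGFRB, receptor tyrosine kinases that dimerise, phosphorylate each other and recruit adaptor proteins and lipid kinases. PDGF-A and PDGF-B are released in active form, whereas PDGF-C and PDGF-D carry an amino-terminal CUB domain that extracellular proteases must remove before the factor can bind its receptor. In the gonad, PDGFRA marks interstitial and stromal mesenchyme and is needed for Leydig cell development in the fetal testis. PDGF-B from endothelium recruits PDGFRB-positive pericytes to new vessels.

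To show the regulatory DNA of the genes described here, the 250 bases before the annotated start of Pdgfc and Pdgfd, the ligands with the largest differences from the Control, and of Pdgfra, the only one of the members searched with a forkhead-type match, are printed 5′ to 3′ from RefSeq (GRCm38.p6). They lie at chr3:81036166-81036415, chr9:6168236-6168485 and chr5:75152001-75152250, all on the plus strand. Capitals mark matches to a searched motif on either strand.
Pdgfc: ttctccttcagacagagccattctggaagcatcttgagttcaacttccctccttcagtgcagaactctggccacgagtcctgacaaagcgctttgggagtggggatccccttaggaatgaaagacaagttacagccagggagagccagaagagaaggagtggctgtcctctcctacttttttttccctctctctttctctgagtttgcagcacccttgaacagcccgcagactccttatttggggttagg
Pdgfd: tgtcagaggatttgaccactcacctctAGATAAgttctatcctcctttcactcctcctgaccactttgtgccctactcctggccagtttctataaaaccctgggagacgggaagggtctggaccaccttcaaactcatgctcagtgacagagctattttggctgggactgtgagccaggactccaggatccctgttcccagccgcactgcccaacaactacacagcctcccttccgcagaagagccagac
Pdgfra: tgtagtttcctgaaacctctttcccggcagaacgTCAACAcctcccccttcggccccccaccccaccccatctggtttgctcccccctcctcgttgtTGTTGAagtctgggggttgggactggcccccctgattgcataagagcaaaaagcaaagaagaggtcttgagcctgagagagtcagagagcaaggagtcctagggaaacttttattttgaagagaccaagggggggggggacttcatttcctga

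Entries were held for 4 of the 6 genes, with 2 for Pdgfa and none for Pdgfb and Pdgfrb, and 8 motifs were searched on both strands. The RUNX core motifs TGTGGT and TGCGGT, present in 14.05% and 5.10% of 32851 promoter windows of this length, were in none of the 5 PDGF windows. The forkhead core TGTTTA, present in 12.03% of windows, was also in none. The related TGTTGA, present in 9.07%, occurred 2 times before Pdgfra, starting at -216 on the minus strand and at -153 on the plus strand relative to the start. The GATA motif AGATAA, present in 9.99%, occurred 1 time before Pdgfd at -223, and the SOX motif ATTGT, present in 27.7%, occurred 1 time before Pdgfa at -133 on the minus strand. The NR5A motif AAGGTC (10.6% of windows) and the GATA motif TGATAA (7.94%) matched nowhere. The Pdgfc window held none of the 8. A match is a description of letters and no match concerns this window alone.

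The levels below are linear intensities in array units, scaled alike on every array. Differences are on the log2(intensity + 16) scale with their standard error (SE), and a gene is said to pass, or to be called, where limma gave p under 0.05 after Benjamini-Hochberg adjustment across the 18193 genes. Foxl2 checked its label: it ranged from 2774 to 4241 in the Control and from 484.2 to 889.7 in the Foxl2 KO. Its range in the DKO was 569.8 to 839.1. Runx1 ranged from 2142 to 2359 in the Control, 931.9 to 2127 in the Runx1 KO and 2111 to 2370 in the DKO. The Runx1 difference was -0.64 ± 0.19 in the Runx1 KO (adjusted p = 0.398) and -0.01 ± 0.19 in the DKO (adjusted p = 0.997). Where this probe set lies relative to the deleted part is not given in the sources used here. By the labels both genotypes carry the same Runx1 alleles, yet the DKO was 0.64 ± 0.19 above the Runx1 KO (limma adjusted p = 0.176). A dimmer Runx1 probe set read 269.9 to 315.1 in the Control, 112.1 to 236.2 in the Runx1 KO and 273.2 to 307.6 in the DKO. In the remaining Runx1 probe sets these groups overlapped. The arrays showed no fall of Runx1 in the ovaries labelled DKO, so their Runx1 genotype rests on the label. The reason was not tested. The germ cell gene Ddx4 (1003 to 1938 over all arrays) and the stromal gene Nr2f2 (3086 to 5374) were present in every group. Control replicate 4 stood apart, with a summed intensity of 5 red blood cell genes of 14160 against 289.6 to 625.1 on the other 15 arrays. Hba-a1, the globin gene among them, did not share this: it read 1.341 to 25.49 in the Control and 29.81 to 40.71 in the Runx1 KO. Each RNA came from a whole ovary, so fewer cells of a type and less RNA per cell cannot be told apart.

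Across the 6 genes and the contrasts that the design allows, 1 call was made: Pdgfc was higher in the DKO than in the Control. In that contrast 388 of 18193 genes passed, 2.13% of all genes. With 4 values against 4, all knockout values lay above all Control values for 1 of the 6 in the Runx1 KO (2.53% of all genes). This held for none in the Foxl2 KO (4.49%) and for 1 in the DKO (4.9%). None of the 6 passed in the Runx1 KO, where 0.121% of genes did, or in the Foxl2 KO, where 1.52% did. None passed between the DKO and the Foxl2 KO (0.0605% of genes), between the DKO and the Runx1 KO (0.989%), or in the interaction (0.011%), which sets the Runx1-related difference in Foxl2-null ovaries against that in ovaries with Foxl2. With 6 members, a count of 0 in a contrast where so few genes passed says little about them, and the sizes and their intervals are given instead. At an unadjusted p under 0.05 limma passed 1335 genes (7.34%) in the Runx1 KO, Pdgfd among them, and 1999 (11.0%) in the Foxl2 KO, Pdgfc among them. At that limit it also passed Pdgfc and Pdgfd between the DKO and the Runx1 KO (9.43% of genes), Pdgfd in the interaction (5.33%), and Pdgfd between the single knockouts (8.74%).

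**Figure D1:**
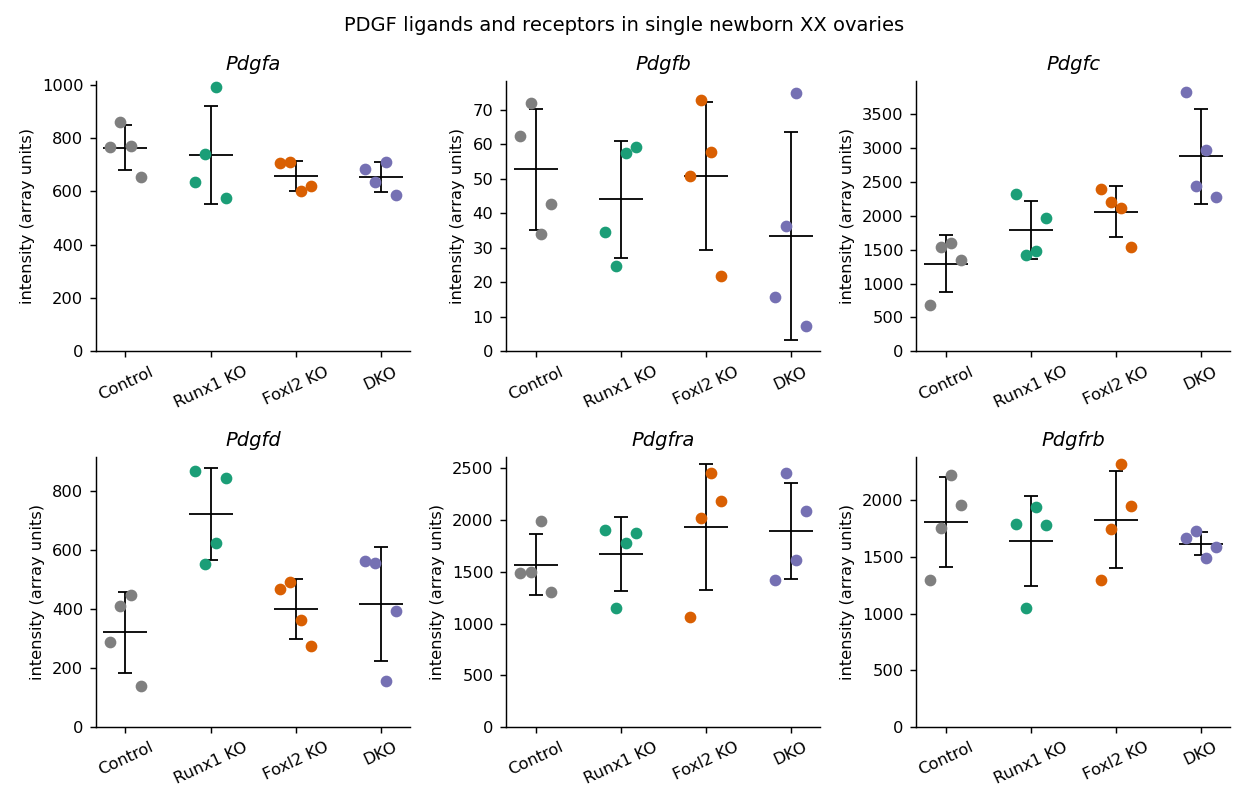
Intensity (array units, linear axis from 0, a separate scale per gene) of the 6 PDGF genes in each ovary of the 4 genotypes. Points are single ovaries in replicate order, and the horizontal mark and bar are the mean and SD (n = 4). The 4 DKO values of Pdgfc (2269 to 3827) lie above the 4 Control values (690 to 1601), and the 4 Runx1 KO values of Pdgfd (555 to 869) lie above the 4 Control values (140 to 447).

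Pdgfc encodes a ligand that, once cleaved, binds PDGFRA. Its intensities in the 4 Control ovaries were 690, 1536, 1601 and 1352. In the Runx1 KO they were 2321, 1421, 1474 and 1963. In the Foxl2 KO they were 2397, 2202, 2108 and 1532. The DKO ovaries read 3827, 2442, 2970 and 2269. All 4 DKO values lay above all 4 Control values, a separation also seen for 4.9% of all genes. The single knockouts had means between and overlapped both. Control replicate 2 (1536) and replicate 3 (1601) were above the lowest Foxl2 KO value, and replicate 1 of the Runx1 KO (2321) and of the Foxl2 KO (2397) were above the lowest DKO value (2269).

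Pdgfc rose 2.27-fold in the DKO against the Control, a log2 difference of 1.18 ± 0.26 (SE, n = 4 and 4, limma adjusted p = 0.0240). The mean log2 levels were 10.28 in the Control, 10.79 in the Runx1 KO, 11.00 in the Foxl2 KO and 11.47 in the DKO. No neighbours in this order differed beyond their spread. The step from Control to Runx1 KO was 0.51 ± 0.26 (adjusted p = 0.707). The Runx1 KO was -0.21 ± 0.26 from the Foxl2 KO (adjusted p = 0.947, in a contrast in which 1.26% of genes passed). The step from Foxl2 KO to DKO was 0.47 ± 0.26 (adjusted p = 0.987). The Foxl2 KO was 0.72 ± 0.26 from the Control, with a 95% interval of 0.16 to 1.27 and an adjusted p of 0.276. The DKO was 0.68 ± 0.26 from the Runx1 KO (adjusted p = 0.382). The interaction was -0.04 ± 0.37, with an interval of -0.82 to 0.74. With 4 ovaries a group, a departure from additivity on the log2 scale within that interval was not excluded.

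The second Pdgfc probe set gave the same order of group means. It read 441, 876, 704 and 909 in the Control and 2436, 1177, 1534 and 1202 in the DKO, again without overlap. Its DKO difference was 1.09 ± 0.26, with an adjusted p of 0.0533 over 45037 probe sets. The Pdgfc call was close to the threshold. It was lost without Control replicate 1, the lowest Control ovary (0.91 ± 0.22, adjusted p = 0.0513), without DKO replicate 1, the highest (1.04 ± 0.27, adjusted p = 0.0881), and without DKO replicate 3 (1.16 ± 0.29, adjusted p = 0.0557). Without Control replicate 4, the array with the high sum of red blood cell genes, it was 1.23 ± 0.29 (adjusted p = 0.0439).

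**Figure D2:**
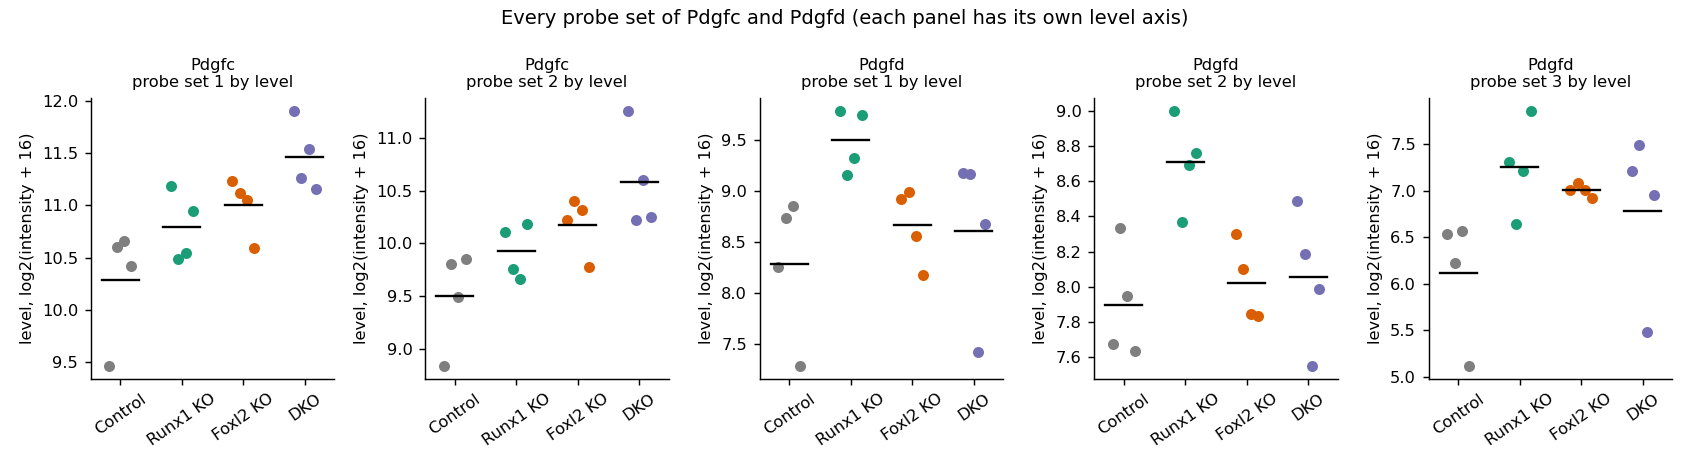
Level, log2(intensity + 16), in each ovary for the 2 probe sets of Pdgfc and the 3 of Pdgfd, with a line at each group mean (n = 4) and a separate axis per panel. Both Pdgfc probe sets have their lowest mean in the Control and their highest in the DKO, and all 3 Pdgfd probe sets have their highest mean in the Runx1 KO.

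Pax8, a gene of the mesonephric and duct epithelium list, moved with Pdgfc. The ovaries had been separated from the mesonephros according to the labels, and which cells carried Pax8 was not tested. Of 5 measured genes of the mesonephric and duct epithelium list, 1 rose in the DKO, and this was Pax8, a transcription factor of renal and genital duct epithelium. Its difference was 2.23 ± 0.35 (adjusted p = 0.00213) in the DKO and 1.74 ± 0.35 (adjusted p = 0.0184) in the Foxl2 KO. Pax8 intensities ran from 55.66 to 258.5 in the Control, 143.8 to 452.9 in the Runx1 KO, 459.7 to 527.3 in the Foxl2 KO and 621.7 to 868.8 in the DKO. Control replicate 1 was lowest for both Pax8 and Pdgfc. The other 4 genes did not pass. Cdh16, a cadherin of kidney tubule, differed by 0.70 ± 0.21 in the DKO (adjusted p = 0.103). Lhx1, an early marker of the nephric duct, read 2.60 to 30.4 over all arrays, which is close to 0. The summed intensity of the 5 genes was 2439 to 3332 in the Control, 1952 to 2946 in the Runx1 KO, 3089 to 3354 in the Foxl2 KO and 3202 to 3825 in the DKO, and most of it was Emx2, which gonadal somatic cells also express. The part of duct epithelium in the Pdgfc result was not tested.

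**Figure D3:**
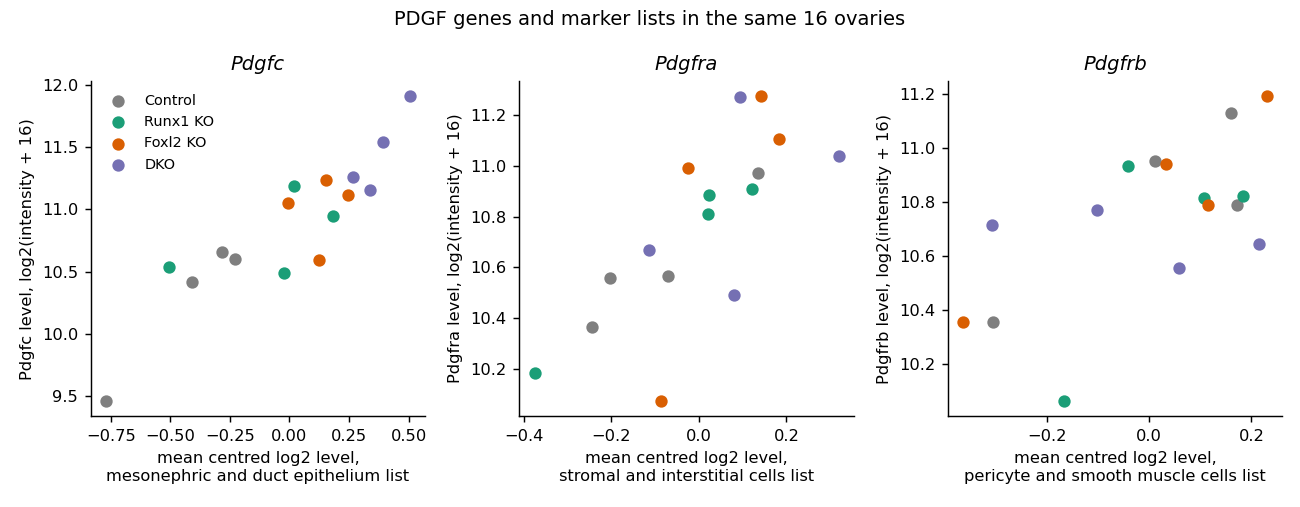
Level of Pdgfc, Pdgfra and Pdgfrb, log2(intensity + 16), in the 16 ovaries against the mean centred log2 level of a marker list on the same array, coloured by genotype. For Pdgfc the Control ovaries lie at the lower left (list means -0.77 to -0.23) and the DKO ovaries at the upper right (0.27 to 0.51), and for both receptors the genotypes are mixed along the cloud.

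Pdgfd encodes a ligand that binds PDGFRB. Its highest values were in the Runx1 KO. The 4 Control ovaries read 290, 409, 447 and 140. The Runx1 KO read 869, 555, 624 and 844, all above the Control, a separation that 2.53% of all genes showed in this contrast. The Foxl2 KO read 470, 493, 362 and 274, overlapping the Control and below every Runx1 KO ovary. The DKO read 564, 558, 155 and 392, where the highest ovaries were level with the lowest Runx1 KO ovary (555) and the others were lower.

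Although the Pdgfd difference in the Runx1 KO was as large as that of Pdgfc in the DKO, it did not pass. It was 1.22 ± 0.38 (2.33-fold), with a 95% interval of 0.41 to 2.04 and a limma adjusted p of 0.445, rank 247 by p among 18193 genes. The mean log2 levels were 8.28 in the Control, 8.61 in the DKO, 8.66 in the Foxl2 KO and 9.50 in the Runx1 KO. The Runx1 KO was 0.84 ± 0.38 above the Foxl2 KO in estimate (adjusted p = 0.547), and the DKO was -0.89 ± 0.38 from the Runx1 KO (adjusted p = 0.471). The DKO differed from the Foxl2 KO by -0.05 ± 0.38 and from the Control by 0.33 ± 0.38 (adjusted p = 1.00 and 0.803). The interaction was -1.28 ± 0.54, with an interval of -2.43 to -0.12 and an adjusted p of 0.908. Without Control replicate 4, the lowest Control ovary and the one with the high sum of red blood cell genes, the Runx1 KO difference was 0.89 ± 0.36 (adjusted p = 0.754). Without DKO replicate 3 (155) the difference of the DKO from the Runx1 KO was -0.50 (adjusted p = 0.704).

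The other Pdgfd probe sets were dimmer and gave the same sign in the Runx1 KO. The second brightest read 188, 307, 231 and 183 in the Control and 497, 315, 398 and 419 in the Runx1 KO, a difference of 0.81 ± 0.21 (adjusted p = 0.391 over all probe sets). Its Foxl2 KO range was 212 to 299 and its DKO range 171 to 343. The dimmest read 19 to 79 in the Control and 84 to 217 in the Runx1 KO, a difference of 1.15 ± 0.39 (adjusted p = 0.635). In this probe set the Foxl2 KO (105 to 119) also lay above the Control, with a difference of 0.90 ± 0.39 (adjusted p = 0.486), which the brighter probe sets did not show (0.38 and 0.12). The DKO in the dimmest probe set read 29 to 164, a difference of 0.67 ± 0.39 from the Control (limma adjusted p = 0.609). There the Runx1 KO was 0.25 ± 0.39 above the Foxl2 KO in estimate (adjusted p = 0.987), against 0.84 and 0.69 in the brighter probe sets.

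Pdgfa, whose product is the classical PDGFRA ligand, was near one level in all groups. It ran from 656 to 861 in the Control, 574 to 992 in the Runx1 KO, 601 to 709 in the Foxl2 KO and 585 to 710 in the DKO, so every pair of groups overlapped. The differences from the Control were -0.08, -0.21 and -0.22, each ± 0.15 (adjusted p = 0.939, 0.701 and 0.631). The interval in the DKO was -0.54 to 0.11. The second probe set gave -0.11, -0.19 and -0.18.

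Pdgfb, the ligand that vascular endothelium supplies, was read at a level too low to follow. Its Control values were 63, 72, 34 and 43, and its DKO values were 16, 36, 75 and 7, wider than the Control on both sides. The Runx1 KO ran from 25 to 59 and the Foxl2 KO from 22 to 73. Its mean log2 level of 5.84 was above that of 21.7% of genes. For comparison, 9 genes of the Y chromosome, which XX ovaries lack, had mean log2 levels from 4.51 to 8.30 with a median of 5.34, and 6 of them were below Pdgfb. The DKO difference was -0.63 ± 0.37 (interval -1.43 to 0.16, adjusted p = 0.540), and the other Pdgfb probe set gave 0.02 ± 0.26. None of the 10 endothelial genes measured passed in any knockout against the Control, where 0.121% to 2.13% of all genes did. Of the 10, 1 passed between the single knockouts (1.26% of all genes). This was Kdr, which was lower in the Runx1 KO than in the Foxl2 KO (-0.81 ± 0.18, limma adjusted p = 0.0336). None of 6 genes of platelets and megakaryocytes, another known source of PDGF-B, passed in any contrast (0.011% to 2.13% of all genes). Counts of 0 in lists this small say little.

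Both receptors were read at an intensity of 1053 or more in every ovary, and neither differed between genotypes beyond the spread. Pdgfra read 1493, 1498, 1990 and 1304 in the Control and 1904, 1148, 1778 and 1876 in the Runx1 KO. It read 1062, 2020, 2459 and 2186 in the Foxl2 KO and 1423, 2453, 1611 and 2088 in the DKO. The groups overlapped, and 1 ovary in each single knockout (1148 and 1062) was the lowest of its group by a wide gap. The differences from the Control were 0.08, 0.25 and 0.25, each ± 0.26, with adjusted p of 0.963, 0.799 and 0.762. Their intervals reached 0.63, 0.79 and 0.80, so a rise of up to about that size was not excluded.

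Pdgfrb, the receptor of pericytes and other mural and stromal cells, had a similar spread. It read 1293, 1752, 2225 and 1962 in the Control and 1791, 1053, 1938 and 1784 in the Runx1 KO. It read 1294, 1751, 2320 and 1948 in the Foxl2 KO and 1664, 1728, 1489 and 1584 in the DKO, where the 4 ovaries were closest together. The differences from the Control were -0.15, 0.01 and -0.13, each ± 0.22 (adjusted p = 0.907, 0.992 and 0.867). The DKO interval was -0.59 to 0.32. The second Pdgfrb probe set gave -0.24, -0.04 and -0.13. The other 2 Pdgfra probe sets gave 0.42 and 0.34 in the DKO, and 0.20 and -0.23 in the Runx1 KO, none of them called.

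**Figure D4:**
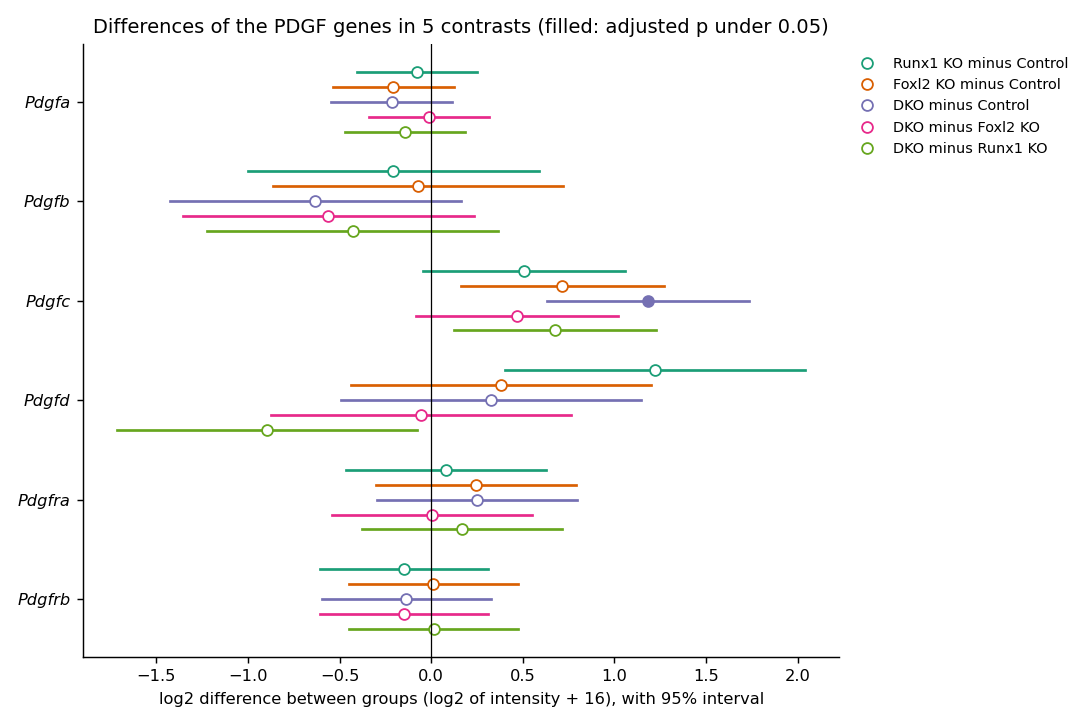
Differences between genotype groups (log2 of intensity + 16, horizontal axis) with 95% intervals for each of the 6 PDGF genes in 5 contrasts (n = 4 ovaries a group). Filled points passed an adjusted p under 0.05: this holds for Pdgfc in the DKO minus Control contrast (1.18) and for no other point, and the intervals of Pdgfb and Pdgfd are the widest.

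Across ovaries, both receptor genes moved with stromal and pericyte marker lists. Other marker lists were not compared in this way, so the relation is not shown to be particular to these cells. Pdgfra was compared with the mean centred log2 level of 9 measured stromal and interstitial genes (Pearson r = 0.758, Spearman rho = 0.809, n = 16). Of the 4 relations computed, this had permutation p of 0.00059 and 0.00026 (0.00236 and 0.00104 after Benjamini-Hochberg adjustment). Without the 2 ovaries farthest from the median on the list, r was 0.713, and for deviations from the group means it was 0.732. With 10 pericyte and smooth muscle genes, Pdgfra gave r = 0.638 and rho = 0.641 (permutation p = 0.00807 and 0.00842, adjusted 0.0108 and 0.0168), and r was 0.460 without the 2 farthest ovaries. Pdgfrb gave r = 0.633 and rho = 0.541 with the pericyte list (permutation p = 0.00767 and 0.0329, adjusted 0.0108 and 0.0439). It gave r = 0.601 and rho = 0.497 with the stromal list (permutation p = 0.0143 and 0.0521, adjusted 0.0143 and 0.0521). The deviations from group means gave 0.652 and 0.723 for Pdgfrb. All values on an array share its RNA and scaling. Runx1 KO replicate 2, the lowest ovary for Pdgfrb (1053), was also the lowest on the stromal list (-0.38) and on the endothelial list (-0.39). Foxl2 KO replicate 1, the lowest for Pdgfra (1062), was the lowest on the pericyte list (-0.36). None of the 9 stromal or 10 pericyte genes passed in any contrast. As 0.011% to 2.13% of all genes passed in these contrasts, this says little.

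Genes of the PDGF pathway were read from 5 lists of 49 genes, of which 46 were measured. None of these passed in any knockout against the Control, where 0.121% (Runx1 KO), 1.52% (Foxl2 KO) and 2.13% (DKO) of all genes did. With shares so low, a count of 0 among 46 says little about the pathway. In the list of proteases and partners, 6 of 8 genes were measured, and their median difference in the DKO was -0.0205 against 0.0447 for all genes. Nrp1, a co-receptor for several growth factors, differed by 0.58 ± 0.23 in the DKO (adjusted p = 0.292), and Pcsk6, a proprotein convertase, by -0.24 ± 0.15 (adjusted p = 0.576). Plau, the urokinase that can cleave PDGF-D, was highest in the Runx1 KO. Its level there was 0.73 ± 0.12 above the Foxl2 KO (adjusted p = 0.00493) and fell by 0.53 on the log2 scale from the Runx1 KO to the DKO (SE 0.12, adjusted p = 0.0499). Against the Control its differences were 0.49 ± 0.12 in the Runx1 KO (adjusted p = 0.231), -0.24 in the Foxl2 KO and -0.03 in the DKO, none called.

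Among 13 receptor adaptors and enzymes, all measured, the median in the DKO was 0.0252. The smallest adjusted p there belonged to Gab1, a docking protein for PI3-kinase and SHP2, at 0.51 ± 0.14 (adjusted p = 0.0743). The exchange factor Sos1 differed by 0.22 ± 0.17 (adjusted p = 0.644). Of 8 measured brakes on receptor signalling, with a median of 0.133, the feedback inhibitor Spry1 differed by 0.53 ± 0.18 (adjusted p = 0.202). Cblb, a ubiquitin ligase that marks receptors for degradation, differed by -0.35 ± 0.13 (adjusted p = 0.237) and fell by 0.57 from the Runx1 KO to the DKO (SE 0.13, adjusted p = 0.0466).

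The 11 related ligands and receptors of the VEGF and class III kinase families had a median of 0.071 in the DKO. Vegfa, the main angiogenic ligand, differed by 0.68 ± 0.24 (adjusted p = 0.214), and its receptor Kdr, called between the single knockouts, by 0.29 ± 0.18 (adjusted p = 0.555). Of 8 early genes that growth factors induce, with a median of 0.193, Ier2 and Egr1 had the smallest p, with differences of -0.56 ± 0.17 (adjusted p = 0.116) and -0.51 ± 0.19 (adjusted p = 0.264). In the Runx1 KO, where Pdgfd was highest, the medians of the 5 lists lay between -0.0762 and 0.155 against 0.0354 for all genes. In the Foxl2 KO they lay between -0.0174 and 0.0752 against 0.0528.

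**Figure D5:**
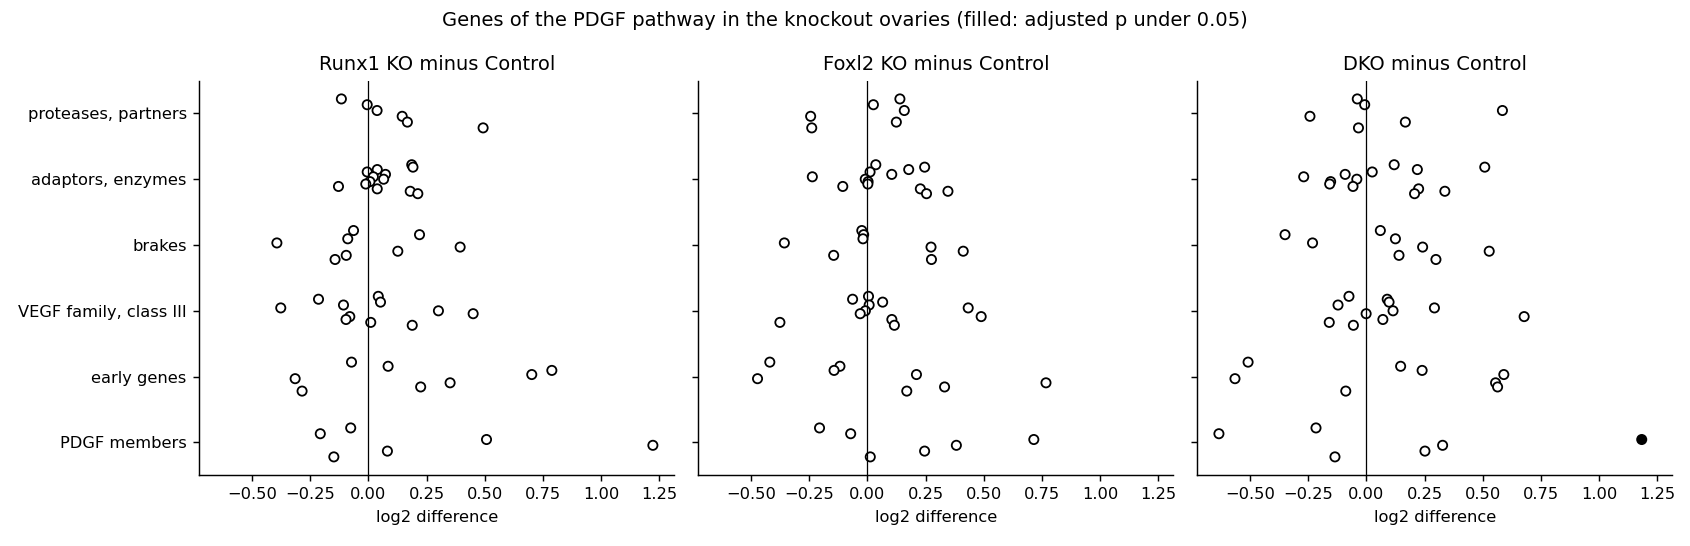
Log2 differences from the Control (horizontal axis, shared by the 3 panels) for every measured gene of 5 pathway lists and for the 6 PDGF genes, with 1 panel for each knockout genotype. Each point is 1 gene, and the filled point, Pdgfc in the DKO (1.18), is the only one with an adjusted p under 0.05.

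Of the 11 marker lists, the pre-granulosa list had 5 of 10 genes that fell in the DKO and the Sertoli list 5 of 10 that rose. In this contrast 2.13% of all genes passed. The Foxl2 KO was much alike, with 4 of 10 that fell and 5 of 10 that rose (1.52% of all genes). In the Runx1 KO these counts were 0 and 1 (0.121%). Between the DKO and the Foxl2 KO no gene of either list passed (0.0605%). Foxl2, which the DKO lacks by genotype, was among those that fell in the DKO. Sox9, Dmrt1 and Dhh, regulators and a signal of Sertoli cells, were among those that rose in the DKO, and 5 of the 10 did not pass. Amh of the Sertoli list was dim, at 9.379 to 12.95 in the Control and 11.2 to 33.46 in the DKO. Differences of the DKO from the Control ran from -3.42 to 0.871 in the pre-granulosa list and from -0.641 to 2.52 in the Sertoli list. Wnt4 of the pre-granulosa list read 404.0 to 742.1 in the Control and 785.3 to 1110 in the DKO, not called. In the theca and Leydig list 1 of 4 measured genes fell, Hsd3b1, a steroid dehydrogenase, with a difference of -2.19 in the DKO. In the Runx1 KO and the Foxl2 KO 1 of the 4 fell as well. The lowest differences of the list there were -1.53 and -1.86 (smallest limma adjusted p = 0.00382 and 0.000131). No gene of the oocyte or macrophage list passed in any contrast, which says little where 0.011% to 2.13% of all genes passed.

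The genes whose levels over the 16 arrays were most like those of each PDGF gene were searched among 8854 named genes at or above the median level, as a description. For Pdgfc they were Aldh1a3 (Pearson r = 0.890), Pax8 (0.883) and Acot1 (0.869), and within groups, as deviations from the group means, r was 0.715, 0.734 and 0.668. For Pdgfd they were Sptbn1 (0.836), Casp12 (0.83) and Ttc3 (0.817). For Pdgfra they were Gucy1a1 (0.880), Rhoj (0.865) and Nfia (0.864), and for Pdgfrb Fzd2 (0.810), Nfia (0.798) and Itsn1 (0.794), so Nfia was on both receptor lists. For Pdgfa they were Elp5 (0.838), Pdia5 (0.810) and Elmod2 (0.789), and for Pdgfb Inafm1 (0.770), Pip4k2b (0.770) and Fbxo45 (0.768). All arrays share the array scaling, and the largest of so many values is high by choice.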

How the data were processed

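The authors amplified RNA of 16 single ovaries and hybridised it to Affymetrix mouse arrays, 1 ovary an array. Per the labels, the deposited linear intensities of each probe set were made with Expression Console 1.2. The algorithm behind these values is not given in the sources used here. The study's own test used log2 intensities normalized by the Robust Multichip Average, which are other values than these. The mean of each array, after 2% was trimmed at each end, was 500.0, and array medians ran from 134.3 to 177.5. Precision is limited by how many arrays there were, and no detection calls, batches or scan dates were used.

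The plan had allowed for log2 values. As the values were linear, 16 was added before log2 was taken. Of 45101 probe sets, 64 were controls, 34945 named 1 gene, 932 several and 9160 none; for 9010 genes with several probe sets the one with the highest mean stood for the gene. limma 3.58.1 in R 4.3.3 fitted 4 group means to all arrays (lmFit, eBayes), with two-sided tests and Benjamini-Hochberg adjustment at 0.05. The contrast of the single knockouts was added after the levels of Pdgfd were seen. The PDGF genes, lists and tests were chosen with earlier results of these data known. From each list the genes called and the 2 with the smallest p in DKO minus Control were described, of marker lists only where they bear on a PDGF gene; for each PDGF gene the 3 most alike named genes were given. The fit was tested on simulated data. Replicate numbers did not pair the ovaries: among 24 same-numbered pairs of arrays, the correlation of residuals exceeded 0.1 in 1 (median -0.0318). Alternatives were other normalizations, offsets, probe set rules, filters, priors, array weights, the methods' analysis of variance (run on the deposited values), and leaving out each array.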

Additional observations from a re-analysis of the deposited data

Results flagged for a closer look

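Of 24 sets of 4 ovaries (6 genes in 4 genotypes), 2 had 1 ovary farther from the rest than expected of 4 values, and chance gives about 1 in 20. Both were Runx1 KO replicate 2, with Pdgfra at 1148 (gap to the nearest ovary over the range of the group 0.865) and Pdgfrb at 1053 (0.864). The same ovary was lowest of all on the stromal list (-0.38) and on the endothelial list (-0.39). Without it the Runx1 KO minus Control difference of Pdgfrb was 0.05 in place of -0.15, neither called.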

How the results depend on the processing

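The Pdgfc call in the DKO, 1 of the 6 genes, became 0 of 6 with the replicate block (adjusted p = 0.0624), with only the 2 groups compared in the fit (0.0957) and with the methods' analysis of variance after adjustment (0.0584). It also became 0 on leaving out replicate 1 of the Control or replicate 1 or 3 of the DKO, so that leaving out 1 array gave 0 to 1 call. The log2 difference stayed between 0.91 and 1.31 in all of these. The methods' analysis of variance was run here on log2(intensity + 16), not on the study's own normalized values. Unadjusted, it passed 1 gene in the Runx1 KO (Pdgfd, 7.15% of all genes) and 1 in the Foxl2 KO (Pdgfc, 10.6%). It also passed 1 in the DKO against the Control (Pdgfc, 12.2%) and 1 in DKO minus Runx1 KO (Pdgfc, 9.04%). The study's minimum of 1.5-fold was then added, a setting run after seeing the data. It was again 1 in each, in the same order, against 2.80%, 5.02%, 5.97% and 4.13% of all genes. The replicate block changed no other call.

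Small differences changed sign, none of them called. Leaving out 1 array moved the Runx1 KO minus Control difference over -0.23 to 0.0307 for Pdgfa, -0.00117 to 0.25 for Pdgfra and -0.30 to 0.0499 for Pdgfrb. It moved Foxl2 KO minus Control over -0.23 to 0.18 for Pdgfb and -0.14 to 0.17 for Pdgfrb. It moved Pdgfd over -0.0051 to 0.72 in DKO minus Control and -0.24 to 0.34 in DKO minus Foxl2 KO, and the Pdgfc interaction over -0.19 to 0.23. Equal array medians gave -0.0709 for Pdgfrb in the Foxl2 KO and 0.0212 for the Pdgfc interaction, and quantile normalization gave 0.0161 for Pdgfd in DKO minus Foxl2 KO. Pdgfrb in the Foxl2 KO was -0.0113 with the mean of all probe sets and -0.0351 without shared probe sets and on its other probe set. Other probe sets gave -0.23 for Pdgfra in the Runx1 KO, 0.0155 for Pdgfb in the DKO and 0.0334 for Pdgfd in DKO minus Foxl2 KO. Of 780 values of single genes under an alternative, 739 kept their sign and side of the threshold, 28 changed sign, 7 lost the call and 6 gained one. The causes were not tested.

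With 4 ovaries a group the precision is limited, with standard errors of 0.15 (Pdgfa) to 0.38 (Pdgfd) on the log2 scale. Pdgfb lies near the level of genes that the tissue lacks.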
